A study of Mus musculus with 6 samples.

Results

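The *Hox* genes of mouse mammary tumor cells were described here in cells with and without a long-term epithelial–mesenchymal transition (EMT). They were taken as every gene whose symbol is *Hox*, a cluster letter from a to d and a number, read from a probe set that carries that symbol alone. This rule gave 36 genes of the 18820 that have such a probe set, 10 of the *Hoxa*, 9 of the *Hoxb*, 9 of the *Hoxc* and 8 of the *Hoxd* cluster. Each of the 36 was read from 1 probe set, whose RefSeq accession led to the same symbol in all 36 cases. EpRas cells are EpH4 mammary epithelial cells of BALB/c background that stably overexpress the Ha-Ras oncogene, which control and treated cells therefore share. Control cells (n = 3) were left untreated, and long-term EMT cells (n = 3) received 2 ng/ml of TGF-β1 for 14 days. Both came from a single cell line in culture, so that no tissue or host cell was part of the samples.

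*Hox* genes encode homeodomain transcription factors that give positional identity to the body axis and the limbs. They lie in 4 clusters, and within a cluster the genes with low numbers are used early and toward the head, those with high numbers late and toward the tail. Genes with the same number in different clusters are paralogs with related sequences. Cells keep their *Hox* pattern over many divisions through Polycomb proteins, which hold silent genes silent, and Trithorax proteins, which hold active genes active, while retinoic acid is a classical inducer of the low-numbered genes. In the mammary gland, *Hox* genes of several clusters take part in ductal and alveolar development, and *HOXA5* is known as an activator of epithelial genes and of p53 in breast cells.

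The arrays were Affymetrix MoGene-1_1-st-v1, and the values are log2 values from the Robust Multi-array Average (RMA), in which a step of 1 is a doubling of signal. Control replicate 1 stood apart over all probe sets, with r = 0.984 and 0.987 against the other controls, which correlated at 0.995 with each other. Over the 36 *Hox* genes the corresponding values were 0.984 to 0.986 and 0.980. These are correlations across genes of 1 array, which are not independent replicates, and high and low probe sets set most of them. The cells kept the simple epithelial keratins, with *Krt8* at a mean of 12.79 in both groups, while E-cadherin (*Cdh1*) fell by 5.09 on the log2 scale and *Zeb2*, which represses it, rose by 1.34 (standard errors, SE, of 0.31 and 0.14, adjusted p = 0.00195 and 0.00938 from limma). By the test used for the *Hox* genes (limma, adjusted p under 0.05 and a fold above 1.5, passed by 0.993% of all probe sets as higher and 0.928% as lower), 3 of 8 epithelial markers fell and 1 of 6 endothelial markers rose, *Cdh5*, from 4.78 to 7.27. Of 8 fibroblast, 6 leukocyte and 4 adipocyte markers 0 passed, but some were above 4.475, the background level explained with the *Hox* levels, in control cells and lower by value after treatment, namely *Dcn* by a log2 difference of -1.76, *Pdgfrb* by -1.31, *Pdgfra* by -0.95 and *Cd14* by -1.12 (limma adjusted p = 0.376, 0.126, 0.248 and 0.367). Control replicate 1 was the highest array for *Dcn*, *Pdgfra* and *Cd14*. By value, 5 of 8 fibroblast and 5 of 6 leukocyte markers were higher after treatment. The largest rise among the fibroblast markers was *Col1a1*, from 6.62 to 7.24 (log2 difference 0.62, limma adjusted p = 0.137). Of the leukocyte markers *Cd68* had means of 8.65 and 8.92 and *Ptprc*, the common leukocyte antigen, 4.76 and 4.78. The part of these markers in the *Hox* values was not tested.

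None of the 36 *Hox* genes changed by the test in long-term EMT cells. All 10 measured *Hoxa* genes, 8 of 9 *Hoxb* genes, 3 of 8 *Hoxd* genes and 0 of 9 *Hoxc* genes had a mean above 4.475, a level under which 95% of 1006 probe sets for olfactory receptors, genes that mammary cells do not use, had their mean. The same 21 genes lay above 4.475 before and after long-term EMT, a level that 23042 of all 35556 probe sets exceeded in control cells. At the 90th percentile of the same probe sets the counts were 29 in control and 27 in treated cells, where *Hoxd9* and *Hoxd10* differed, and at the 99th percentile 16 and 15, where *Hoxa13* differed. Of the 21, 19 lay above 4.475 on all 6 arrays, and *Hoxa9* and *Hoxa11* did so on some arrays only. The 15 genes under 4.475 were *Hoxb2*, the 9 *Hoxc* genes, *Hoxd1*, *Hoxd8*, *Hoxd9*, *Hoxd10* and *Hoxd12*. Each probe set has its own brightness, so a level was set only against a background and never against another *Hox* gene. A mean over a bulk sample also cannot tell fewer expressing cells from less RNA per cell.

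**Figure D1:**
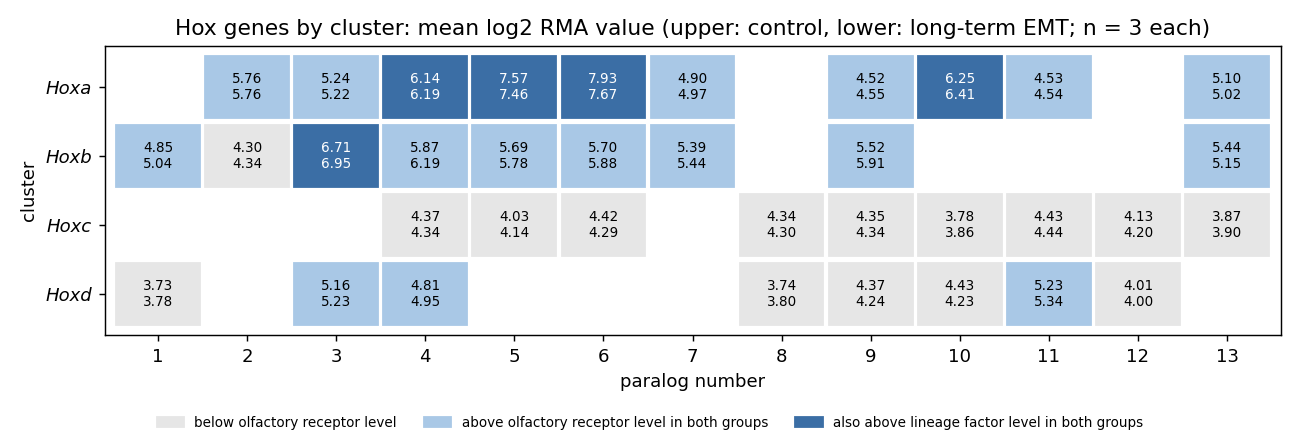
Each box is a measured *Hox* gene, placed by its cluster (rows) and paralog number (columns), with its mean log2 RMA value in control cells above and in long-term EMT cells below (n = 3 each). Grey boxes lie under the olfactory receptor level of 4.475, light blue boxes above it in both groups, and dark blue boxes also above the level of 5.92 from lineage transcription factors, and an empty place holds no gene with a probe set of its own.

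The olfactory receptor level was a low bar for genes of this kind. As a second background, 39 measured genes for transcription factors of other lineages were read, such as *Myod1* of muscle, *Pdx1* of pancreas and *Otx2* of brain. This list was added after the *Hox* values were seen. Their means had a median of 4.65 and a 95th percentile of 5.92, and the highest, *Nkx2-5* of heart, had a mean of 6.33 over the 6 arrays. In control cells, 25 of these 39 lay above 4.475. Against 5.92, 5 *Hox* genes remained above in both groups, namely *Hoxa4*, *Hoxa5*, *Hoxa6*, *Hoxa10* and *Hoxb3*, and only *Hoxa5*, *Hoxa6* and *Hoxb3* lay above all 39. The others of the 21 therefore had signals that these lineage factors also reached, and whether they are expressed could not be settled from these levels. *Hoxb4* was under 5.92 by its control mean of 5.87 and above it by its long-term EMT mean of 6.19, a difference that did not pass the test.

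Promoter sequences are shown for the adjacent genes *Hoxa5* and *Hoxa6*, which had clear signal, for *Hoxb4*, which lay near the lineage factor level, and for *Hoxc4* of the cluster at background. Each spans the RefSeq start of the gene, mostly upstream of it and on its strand, and capitals mark CG dinucleotides, the sites of DNA methylation (RefSeq, GRCm38.p6). *Hoxa5* is at chr6:52204538-52204837, minus strand, *Hoxa6* at chr6:52208623-52208922, minus strand, *Hoxb4* at chr11:96318017-96318316, plus strand, and *Hoxc4* at chr15:103034145-103034444, plus strand.
Hoxa5: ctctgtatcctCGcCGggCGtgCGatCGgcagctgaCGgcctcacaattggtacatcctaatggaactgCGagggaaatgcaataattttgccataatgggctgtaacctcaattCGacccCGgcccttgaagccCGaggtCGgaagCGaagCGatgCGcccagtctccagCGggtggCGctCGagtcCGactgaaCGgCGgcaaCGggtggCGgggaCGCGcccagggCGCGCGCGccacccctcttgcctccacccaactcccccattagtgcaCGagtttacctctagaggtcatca
Hoxa6: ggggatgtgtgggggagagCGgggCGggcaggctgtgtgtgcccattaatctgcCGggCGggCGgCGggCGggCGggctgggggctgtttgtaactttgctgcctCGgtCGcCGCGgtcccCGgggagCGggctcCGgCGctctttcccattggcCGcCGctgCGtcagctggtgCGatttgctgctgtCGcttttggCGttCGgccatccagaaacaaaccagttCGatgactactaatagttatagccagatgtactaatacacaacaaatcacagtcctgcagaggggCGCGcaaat
Hoxb4: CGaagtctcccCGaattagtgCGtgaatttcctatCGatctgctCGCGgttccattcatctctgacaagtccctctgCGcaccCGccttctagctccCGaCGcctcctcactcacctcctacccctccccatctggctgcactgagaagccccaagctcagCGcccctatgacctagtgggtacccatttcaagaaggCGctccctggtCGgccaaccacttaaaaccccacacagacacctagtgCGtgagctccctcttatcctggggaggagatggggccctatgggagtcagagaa
Hoxc4: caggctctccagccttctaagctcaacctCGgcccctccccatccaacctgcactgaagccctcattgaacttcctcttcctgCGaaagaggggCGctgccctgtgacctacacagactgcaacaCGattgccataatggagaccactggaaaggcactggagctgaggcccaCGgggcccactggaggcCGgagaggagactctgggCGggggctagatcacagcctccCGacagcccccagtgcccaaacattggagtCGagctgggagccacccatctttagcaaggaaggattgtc
These hold 29, 26, 14 and 9 CG dinucleotides, and G and C make up 61.7%, 62.0%, 58.0% and 60.3% of their bases. *Hoxa5* and *Hoxa6*, above the lineage factor level, held more CG than *Hoxb4* and *Hoxc4*, but other promoters did not keep to this. *Hoxd1*, *Hoxd10*, *Hoxd9*, *Hoxd12* and *Hoxd8*, all under the olfactory receptor level, had 29, 22, 20, 13 and 6 CG. The promoters of *Hoxa10*, above the lineage factor level, had 12 and 21. A relation of CG number to signal was not tested. For the measured *Hox* genes the promoter table held 22 promoters of 20 genes, with a median of 14.5 CG against 7 over all 32851 promoters. The letters CAGAC, a core of Smad binding sites, were found on either strand in 8 of these 22, or 36.4%, and in 49.6% of all promoters. CAGGTG, an E-box that Zeb and Snail proteins bind, was in 0 of 22 and in 20.2% of all. Neither motif contains the other. Such matches describe the windows only.

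**Figure D2:**
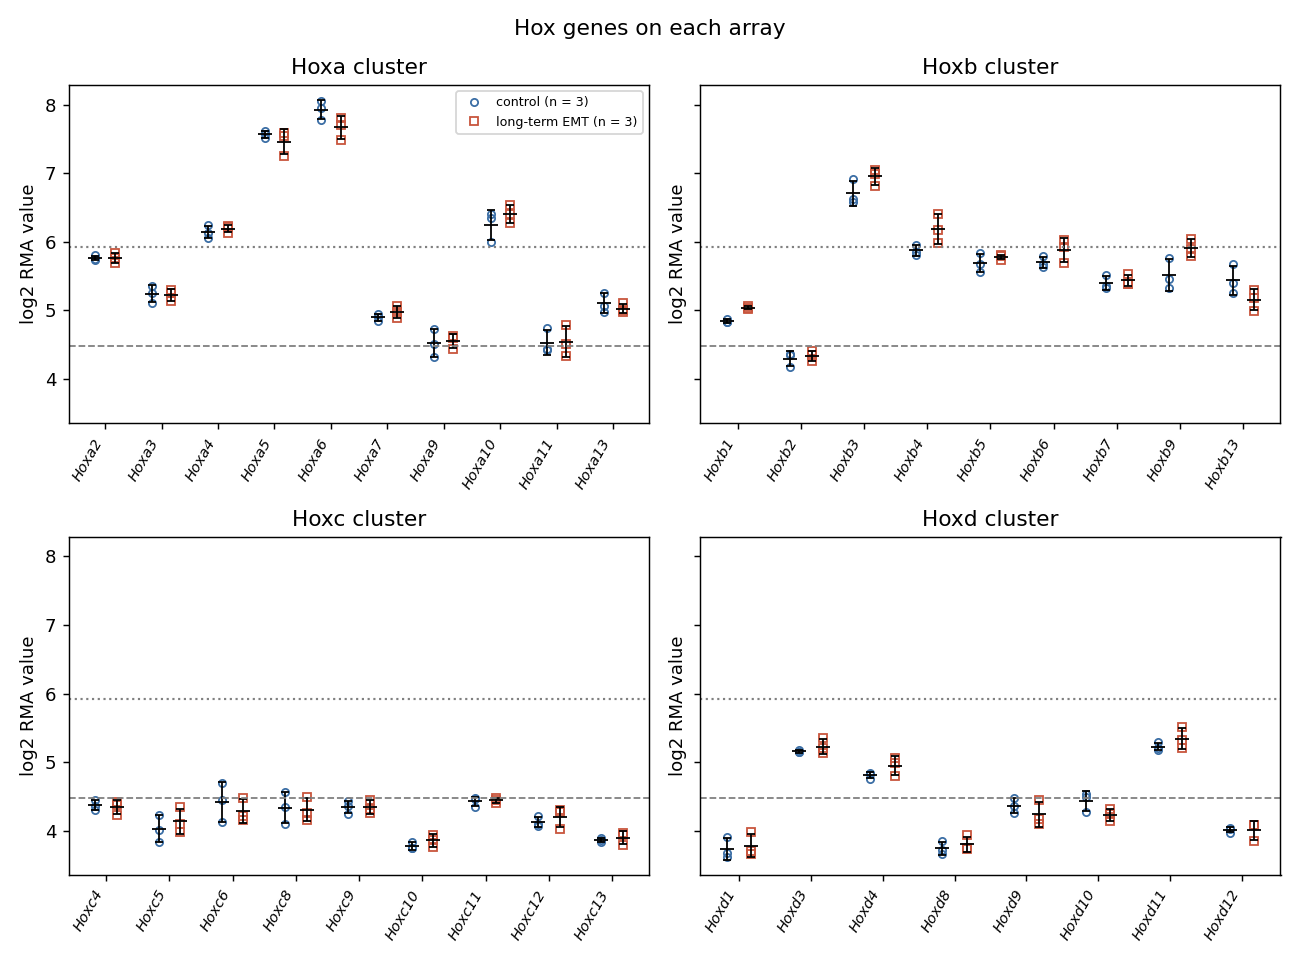
The log2 RMA value of each *Hox* gene on each array, in control cells (circles) and long-term EMT cells (squares), with mean and SD in black (n = 3 per group), the olfactory receptor level of 4.475 (dashed) and the lineage factor level of 5.92 (dotted). *Hoxa4*, *Hoxa5*, *Hoxa6*, *Hoxa10* and *Hoxb3* lie above the dotted line on all 6 arrays and the *Hoxc* genes lie around or under the dashed line, and the groups are apart for *Hoxb1*, *Hoxb4* and *Hoxb9*.

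Of the 36 *Hox* genes, 0 passed the test, which asked for an adjusted p under 0.05 from limma (Benjamini-Hochberg over all 35556 probe sets) and a fold above 1.5. Over all probe sets 1.92% passed, 353 higher (0.993%) and 330 lower (0.928%), so that a list of this size would hold few calls in any case. With no fold threshold the count was also 0, where 2.21% of all probe sets passed, and the lowest adjusted p of a *Hox* gene was 0.279. At an unadjusted p under 0.05 in the same fit, 3 of 36 were higher and 0 lower, against 7.3% higher and 6.23% lower of all probe sets, and none of the 3 reached a fold of 1.5. The methods' t-test gave 1 gene, *Hoxb1*, at p of at most 0.05, where 12.3% of all probe sets passed, and 0 with a fold above 1.5, beside 3.73% of all. The log2 fold changes ran from -0.29 to 0.39, with a median of 0.04 beside 0.02 over all probe sets, and a median size of 0.08 beside 0.11. Standard errors lay between 0.07 and 0.17. For 33 of 36 genes the 95% interval of the change lay within a 1.5-fold difference either way, as it did for 70.9% of all probe sets. The exceptions were *Hoxb4*, *Hoxb9* and *Hoxb13*, whose intervals also held changes above 1.5-fold. For genes at background, an interval close to 0 describes the probe set and says little of the gene.

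**Figure D3:**
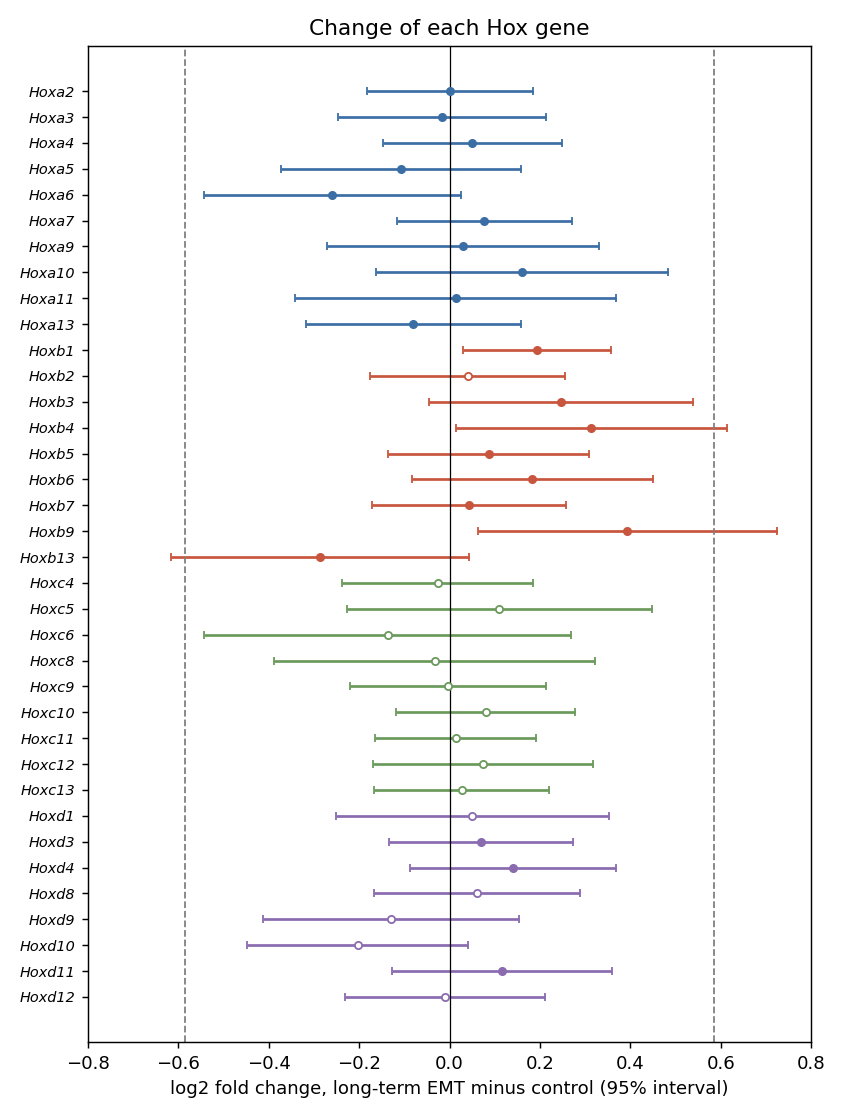
The log2 fold change of each *Hox* gene, long-term EMT minus control, with its 95% interval from limma (n = 3 per group), coloured by cluster, with filled points for genes above the olfactory receptor level and open points for those under it. Dashed lines mark a 1.5-fold change in each direction, and only the intervals of *Hoxb4*, *Hoxb9* and *Hoxb13* reach past them.

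Among the *Hoxa* genes, *Hoxa5* gave 7.51, 7.57 and 7.62 in control cells and 7.25, 7.59 and 7.54 in long-term EMT cells. Long-term EMT replicate 1 was the low value and the groups overlapped (log2 fold change -0.11, 95% interval -0.37 to 0.16, adjusted p = 0.777 from limma). Its neighbour *Hoxa6* was measured at 7.78, 7.95 and 8.05 in control and 7.49, 7.70 and 7.81 in long-term EMT cells. Here 2 of 3 treated arrays were under all controls, with a log2 difference of -0.26 ± 0.12 (SE, limma adjusted p = 0.421). *Hoxa10*, a posterior gene that also acts in the uterus and in blood progenitors, stood at 6.35, 6.0 and 6.40 against 6.54, 6.28 and 6.41. Only control replicate 2 was below the treated range, and the log2 difference was 0.16 ± 0.13 (SE, limma adjusted p = 0.711). *Hoxa4* was flat, at 6.14 ± 0.09 (SD, n = 3) and 6.19 ± 0.06 (SD, n = 3). *Hoxa2*, an anterior gene of hindbrain and pharyngeal patterning, had the same mean in both groups, 5.76, with a 95% interval of -0.18 to 0.18. The other *Hoxa* genes (*Hoxa3*, *Hoxa7*, *Hoxa9*, *Hoxa11* and *Hoxa13*) had log2 fold changes between -0.08 and 0.08, and the cluster as a whole a median of 0.01.

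The 3 largest differences by value were in *Hoxb* genes, and 8 of 9 were higher in long-term EMT cells without any of them passing the test. Over all probe sets 55.4% had a value above 0. *Hoxb9*, which has been tied to EMT and vessel growth in breast tumors, was measured at 5.32, 5.77 and 5.46 in control and 6.04, 5.90 and 5.79 in long-term EMT cells. The groups were narrowly apart, and the fold was 1.31 (log2 fold change 0.39, 95% interval 0.06 to 0.72, adjusted p = 0.279 from limma). *Hoxb4*, a factor of blood stem cell expansion, stood at 5.96, 5.81 and 5.85 against 6.17, 5.98 and 6.41. Again the groups were narrowly apart (log2 difference 0.31 ± 0.12 SE, limma adjusted p = 0.345). *Hoxb1*, a hindbrain gene, had the tightest replicates, 4.88, 4.83 and 4.83 against 5.04, 5.02 and 5.06. Its log2 difference of 0.19 ± 0.07 (SE, limma adjusted p = 0.284) was at means of 4.85 and 5.04, above the median of the lineage factors and under their 95th percentile. These were the only 3 *Hox* genes, or 8.33%, with groups that did not overlap, all of them higher, where 19.2% of all probe sets were apart, 10.5% higher and 8.68% lower.

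Of the other *Hoxb* genes, *Hoxb3* gave 6.58, 6.92 and 6.62 in control and 6.82, 7.05 and 6.99 in long-term EMT cells. Control replicate 2 lay within the treated range, and the log2 difference was 0.25 ± 0.12 (SE, limma adjusted p = 0.468). *Hoxb6* was measured at 5.63, 5.68 and 5.79 against 5.69, 5.93 and 6.03. Its treated replicate 1 sat among the controls, and the log2 difference was 0.18 ± 0.11 (SE, limma adjusted p = 0.572). *Hoxb13*, a gene of the tail bud and prostate that lies apart from the rest of its cluster, was the 1 *Hoxb* gene that was lower by value, at 5.67, 5.40 and 5.25 against 4.99, 5.29 and 5.18. Control replicate 3 lay within the treated range (log2 fold change -0.29, 95% interval -0.62 to 0.04, adjusted p = 0.451), and without control replicate 1 the value was -0.17. *Hoxb5*, *Hoxb7* and *Hoxb2* had log2 fold changes of 0.09, 0.04 and 0.04. The median over the 9 *Hoxb* genes was 0.18, and their median level by array was 5.63, 5.68 and 5.46 in control and 5.69, 5.74 and 5.79 in long-term EMT cells. These medians nearly touched, genes of 1 cluster are not replicates, and no test was made of this median, which was 0.11 without long-term EMT replicate 3. With 1 array left out, *Hoxb9* ranged from 0.295 to 0.52, *Hoxb4* from 0.20 to 0.42, *Hoxb6* from 0.11 to 0.28, *Hoxa6* from -0.33 to -0.17, *Hoxa10* from 0.035 to 0.235, *Hoxd4* from 0.08 to 0.22 and *Hoxd11* from 0.03 to 0.19. With all 6 arrays, 13.5% of all probe sets reached an unadjusted p under 0.05 in limma. For fits with 1 array left out this share is not given here, so their *Hox* counts have no matching share. In those fits at most 3 of the 36 *Hox* genes reached an unadjusted p under 0.05, and which genes these were shifted with the arrays. They were *Hoxa6*, *Hoxb1* and *Hoxb4* without control replicate 1, *Hoxb3*, *Hoxb9* and *Hoxd10* without control replicate 2, *Hoxb13* without control replicate 3, and *Hoxb6* and *Hoxd4*, *Hoxb4*, and *Hoxa6* and *Hoxb9* without long-term EMT replicates 1, 2 and 3.

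All 9 *Hoxc* genes stayed near the olfactory receptor level, with means between 3.78 and 4.44 in either group and log2 fold changes between -0.14 and 0.11. *Hoxc6*, a thoracic gene also known in mammary development, varied most, with 4.45, 4.70 and 4.12 in control and 4.16, 4.22 and 4.48 in long-term EMT cells. Only control replicate 2 and long-term EMT replicate 3 exceeded 4.475 for it, so that a level was not measured. *Hoxc8* did so on control replicate 1 and long-term EMT replicate 3, and the remaining 7 on no array. In the *Hoxd* cluster *Hoxd3*, *Hoxd4* and *Hoxd11* were above this level. *Hoxd4* stood at 4.84, 4.76 and 4.82 in control and 4.79, 4.99 and 5.06 in long-term EMT cells. *Hoxd11*, a limb and tail gene, was measured at 5.29, 5.18 and 5.21 against 5.32, 5.51 and 5.20. In both genes 1 treated array lay within the control range, and the log2 fold changes were 0.14 and 0.12 (adjusted p = 0.627 and 0.725 from limma). *Hoxd3*, which regulates integrins in endothelial cells, was 5.16 ± 0.02 (SD, n = 3) and 5.23 ± 0.11 (SD, n = 3). *Hoxd10*, under the background level, had a log2 difference of -0.20 ± 0.10 (SE, limma adjusted p = 0.476). The median change was 0.01 over the *Hoxc* and 0.06 over the *Hoxd* genes.

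Probe sets with several symbols gave 3 more readings of these loci and were not counted as genes. That of *Hoxb8* and *Hoxb7* had 5.06, 5.00 and 4.96 in control and 4.93, 5.23 and 5.32 in long-term EMT cells. That of *Hoxa3* and its antisense neighbour *Hoxaas2* had a log2 fold change of 0.32 (adjusted p = 0.555 from limma), and that of *Hoxd3* and *Hoxd3os1* had means of 4.58 and 4.43. None of the 3 passed the test. *Hottip*, a non-coding RNA at the posterior end of the *Hoxa* cluster, lay far under the background level, between 3.36 and 3.58 on all arrays.

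The clusters also hold microRNAs of the miR-10 and miR-196 families, which are known to target *Hox* transcripts. Their mature 5p sequences are given to show how close the family members are, with the seed, bases 2 to 8, in capitals (RefSeq, GRCm38.p6).
mmu-miR-10a-5p: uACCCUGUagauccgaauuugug
mmu-miR-10b-5p: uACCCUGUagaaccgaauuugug
mmu-miR-196a-5p: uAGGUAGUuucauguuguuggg
mmu-miR-196b-5p: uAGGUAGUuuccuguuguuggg
The miR-10 members share their seed and differ by U12A, counted from the 5′ end of miR-10a, and the miR-196 members share theirs and differ by A12C, counted from the 5′ end of miR-196a. *Mir10a* of the *Hoxb* cluster gave between 2.92 and 3.11 on the arrays, and *Mir10b* of the *Hoxd* cluster between 2.99 and 3.18. *Mir196a-1* and *Mir196a-2* had means under 4.475 in both groups, as did *Mir196b* at 4.23 and 4.42. *Mir615*, inside the *Hoxc* cluster, was above that level at 5.34 ± 0.10 (SD, n = 3) and 5.45 ± 0.17 (SD, n = 3), though under 5.92. None of these 6 microRNA genes or *Hottip* passed the test (0 of 7, at an unadjusted p under 0.05 also 0). What form of a microRNA these probe sets read, precursor or mature, is not given in the sources used here.

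Hox proteins bind DNA with cofactors of the Pbx, Meis and Pknox (Prep) families. All 8 that were measured lay above the background level in both groups, and 0 of 8 passed the test. *Pbx4*, with means of 5.52 in control and 5.68 in treated cells, was under the lineage factor level of 5.92. So was *Pknox2*, with means of 5.23 and 4.84, and whether these genes are expressed could not be settled from such levels. The other cofactors lay above 5.92 in both groups. At an unadjusted p under 0.05 in limma, 1 of 8 was higher and 2 were lower, where 7.3% of all probe sets were higher and 6.23% lower. *Pbx3* gave 9.58, 9.80 and 9.79 in control and 9.93, 9.96 and 10.04 in long-term EMT cells, and the groups were apart, at a log2 difference of 0.25 ± 0.09 (SE, limma adjusted p = 0.295). *Pknox2* and *Pknox1* had log2 fold changes of -0.39 and -0.30 (adjusted p = 0.355 and 0.364). *Pknox2* was at -0.23 without control replicate 1, and *Pknox1* at -0.18 without long-term EMT replicate 1. For *Meis2* the controls were spread, at 8.12, 8.49 and 8.92, while the treated arrays were at 8.08, 8.14 and 8.15 (log2 difference -0.39 ± 0.20 SE, limma adjusted p = 0.485). Without control replicate 1 the *Meis2* value was -0.58, and without control replicate 3 it was -0.18. The median over the 8 cofactors was -0.02.

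**Figure D4:**
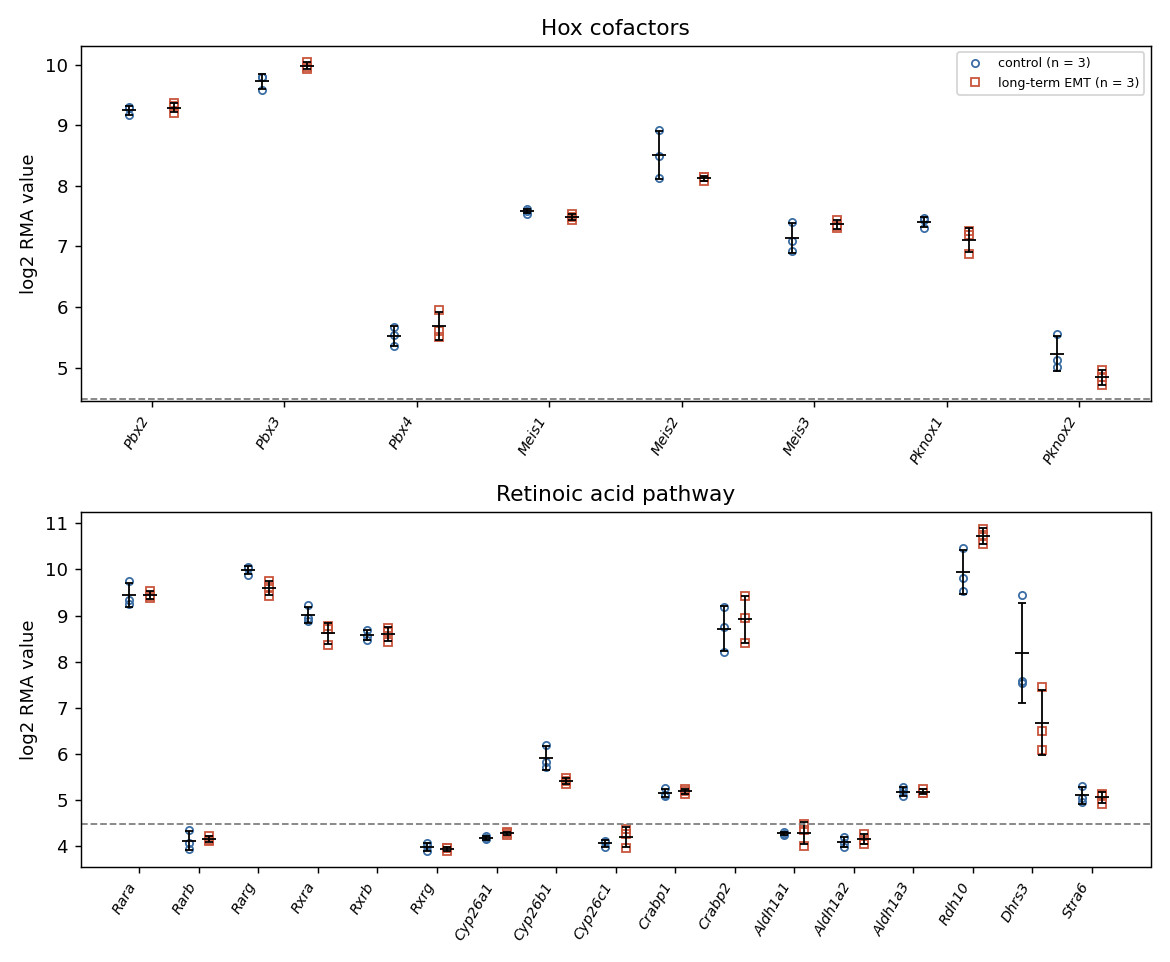
The log2 RMA values of Hox cofactors (upper panel) and genes of the retinoic acid pathway (lower panel) on each array, in control cells (circles) and long-term EMT cells (squares), with mean and SD in black (n = 3 per group) and the olfactory receptor level of 4.475 (dashed). *Meis2*, *Crabp2*, *Rdh10* and *Dhrs3* show a wide spread among the controls, and no gene in either panel passed the test.

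The chromatin machinery that maintains *Hox* patterns was expressed, with all 27 Polycomb and all 13 Trithorax and H3K27 demethylase genes above the background level in both groups. None of the 27 or 13 passed the test. At an unadjusted p under 0.05, 5 of 27 Polycomb genes were higher and 2 lower, and 0 of 13 Trithorax genes were higher and 1 lower, beside 7.3% higher and 6.23% lower of all probe sets. *Pcgf3*, of a variant Polycomb complex, came nearest at 10.31, 10.28 and 10.26 against 10.74, 10.59 and 10.60 (log2 difference 0.36 ± 0.08 SE, limma adjusted p = 0.0874). *Pcgf6*, of another variant complex, and *Ezh2*, the main H3K27 methyltransferase, had log2 fold changes of 0.31 and 0.28 (adjusted p = 0.566 and 0.273), of which *Pcgf6* was at 0.11 without control replicate 1. *Cbx7*, a reader of that mark, was the 1 gene of these lists past a 1.5-fold difference, at 7.69, 7.25 and 6.99 against 6.71, 6.80 and 6.64. Control replicate 1 was its highest array, the fold was 1.51 (adjusted p = 0.208), and without that array the log2 fold change was -0.40 in place of -0.59. *Kmt2c*, an enhancer methyltransferase, had a log2 fold change of -0.30 (adjusted p = 0.356). *Dot1l*, the H3K79 methyltransferase, was at 0.26 (adjusted p = 0.542) and at 0.12 without control replicate 1, *Wdr5* and *Kmt2d* were at 0.15 and 0.13, and *Kmt2a* (MLL), the best known activator of *Hox* genes, was at -0.02. The medians were 0.03 for the Polycomb and 0.05 for the Trithorax list.

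Of 17 measured genes of the retinoic acid pathway, which acts upstream of the anterior *Hox* genes, 11 lay above the background level in both groups and 0 passed the test. That level was exceeded by 23042 of all 35556 probe sets in control cells. Of the 11, *Crabp1*, *Aldh1a3*, *Stra6* and *Cyp26b1* had both means under the lineage factor level of 5.92, and the others lay above it. At an unadjusted p under 0.05, 1 of 17 was higher and 4 were lower, beside 7.3% and 6.23% of all probe sets. *Rdh10*, which makes retinaldehyde, gave 10.47, 9.82 and 9.54 in control and 10.55, 10.88 and 10.76 in long-term EMT cells (log2 difference 0.79 ± 0.24 SE, limma adjusted p = 0.215). Without control replicate 1 it passed, with a log2 difference of 1.05 ± 0.14 (SE, limma adjusted p = 0.0226). *Dhrs3*, which turns retinaldehyde back into retinol, stood at 9.45, 7.54 and 7.58 against 6.49, 7.45 and 6.07 (log2 difference -1.52 ± 0.60 SE, limma adjusted p = 0.343). Its size rested on control replicate 1, without which it was -0.89 (adjusted p = 0.347). *Cyp26b1*, which degrades retinoic acid, and the receptor genes *Rarg* and *Rxra* had log2 fold changes of -0.50, -0.40 and -0.41 (adjusted p = 0.167, 0.153 and 0.293). The receptor gene *Rarb* was under 4.475 in both groups, at 4.11 and 4.15. *Cyp26a1* was also under it, at 4.17 and 4.27.

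Genes beside the clusters were read to see whether the surroundings moved. Of 21 measured flanking genes 0 passed, and 1 was higher at an unadjusted p under 0.05, beside 7.3% of all probe sets. This was *Skap1*, an adaptor of T cell signaling next to *Hoxb1*, at 4.37, 4.29 and 4.46 in control and 4.85, 4.86 and 4.80 in long-term EMT cells. Its adjusted p was 0.0422 from limma, but its fold was 1.38, with control values under the background level. Without control replicate 1 its adjusted p was 0.0654. The next largest changes by value were *Snx10* at 0.34, *Calcoco1* at 0.34 and *Snx11* at 0.27 (limma adjusted p = 0.448, 0.562 and 0.778), which were 0.49, 0.52 and 0.03 without control replicate 1. *Skap2*, beside the *Hoxa* cluster, and *Mtx2*, beside the *Hoxd* cluster, had log2 fold changes of -0.09 and -0.14. Of the homeobox genes *Evx1* and *Evx2*, which close the posterior ends of the *Hoxa* and *Hoxd* clusters, and the *Hox* regulators *Cdx1*, *Cdx2*, *Cdx4* and *Gbx2*, 0 of 6 passed, with log2 fold changes between -0.01 and 0.17.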

How the data were processed

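RNA of 3 untreated and 3 TGF-β1-treated samples of EpRas cells was profiled, 150 ng per sample and 1 array each. The authors made the log2 values with RMA (Affymetrix Expression Console per the labels, version not given in the sources used here) and deposited a table of 35556 probe sets, rounded to 2 decimals. They were used as deposited, and RMA's quantile step forces equal array distributions, so that a shift common to most genes could not be seen. Groups were taken from the sample titles. Whether the triplicates are separate cultures is not stated for the arrays, so the spread behind the p-values is that of these samples alone and may be technical. Precision is limited by having 6 arrays.

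The treated and untreated arrays were tested against each other in limma 3.58.1 under R 4.3.3 (functions lmFit and eBayes), without a replicate block, and p-values were adjusted by Benjamini-Hochberg across the whole table. The code was tested on simulated data. Symbols came from the platform annotation, in which 21218 probe sets have 1 symbol. Where a gene had more than 1 probe set, the brightest on average stood for it. Array values were given for the 10 genes with the largest change among those above background and for genes with an unadjusted p under 0.05, and list members that passed or changed most were named. *Hoxa2*, *Hoxa4*, *Hoxa5*, *Hoxc6*, *Hoxc8*, *Hoxd3* and *Hoxd10* were named after their values were seen. So were *Kmt2a*, *Skap2*, *Mtx2*, *Rarb*, *Rarg*, *Cyp26a1*, *Crabp1*, *Crabp2*, *Aldh1a3*, *Stra6*, *Pbx4*, *Krt8*, *Ptprc*, *Cd68*, *Cd14*, *Col1a1*, *Dcn*, *Pdgfra* and *Pdgfrb*. The *Hox* genes and lists were chosen with earlier results of these data known. Other tests, thresholds, normalizations, backgrounds and leaving out each array were tried.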

Additional observations from a re-analysis of the deposited data

How the results depend on the processing

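No *Hox* gene passed under any alternative that was run: the methods' t-test, a trended and robust prior, fold thresholds of 2 or none, calls without p adjustment, the replicate block, a second quantile normalization, arrays set to equal medians, a filter on dim probe sets, probe sets with several symbols and each array left out. Since each of the 36 genes has 1 probe set, averaging probe sets changed only the number of tests. Over these settings the largest size of a *Hox* log2 fold change was 0.52 and the lowest adjusted p was 0.0893, for *Hoxb1* in the methods' t-test after adjustment. The sign turned in at least 1 setting for 15 of 36 genes, all of them at a size of at most 0.14. Counts over all probe sets, 353 higher and 330 lower, were 43 and 26 with the adjusted t-test, 638 and 688 with the unadjusted t-test, 785 and 915 at an unadjusted p in limma and 194 higher at a fold above 2. Leaving out 1 array gave 107 to 472 higher and 98 to 482 lower probe sets. The number of *Hox* genes above background, 21 in each group, was 29 and 27 at the 90th percentile of the olfactory receptors and 16 and 15 at the 99th, and became 5 (control) and 6 (long-term EMT) with the lineage factor level, which was chosen after seeing the data. The *Hoxd* median of 0.06 was 0.0267 with equal array medians and 0.12 with dim probe sets left out. Leaving out 1 array gave -0.0558 to 0.03 for the *Hoxa* and -0.0075 to 0.0992 for the *Hoxd* median, 0.11 to 0.1933 for the *Hoxb* median of 0.18 (lowest without long-term EMT replicate 3) and 0.0083 to 0.0383 for the *Hoxc* median of 0.01, which was -0.0189 after a second quantile normalization and -0.015 with equal array medians. The retinoic acid list had 1 higher gene, *Rdh10*, without control replicate 1, and between 0 and 1 over the arrays left out. Replicate numbers are shared between the groups, but the methods name no pairing, so the numbers were not taken as pairs. Deviations of same-numbered samples correlated at 0.188, 0.0203 and 0.249, and those of differently numbered samples between -0.267 and 0.142. Whether the numbers mark pairs is therefore not known. With the replicate block, 256 higher and 278 lower probe sets passed and 0 *Hox* genes. Levels near background limit what could be seen for the *Hoxc* genes and most *Hoxd* genes.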
